A study of Rattus norvegicus with 4 samples.

Results

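The transcripts of a set of imprinted genes that control growth were compared between the cortex of newborn rats exposed before birth to bisphenol A (BPA), a plasticizer with oestrogen-like activity, and that of vehicle controls. The set names 10 genes: Cdkn1c, H19, Plagl1, Mest, Peg3, Dlk1, Meg3, Grb10, Ndn and Snrpn. Rows were taken where the symbol in the FPKM files equalled a name in the set, which gave 9 genes of 17419 transcripts listed in all. Meg3 was not among these symbols. The row of its Gene ID, 500717, carries the symbol RGD1566401 in the files and the name Meg3 in RefSeq, and it is described here beside the other 9.

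RNA came from the frontal cortex (the prefrontal cortex in the study's methods) of Wistar pups (Wistar Furth in the methods) of postnatal day 1. Their dams had received either 5000 µg of BPA per kg of maternal body weight or the vehicle, ethanol in corn oil, every day between gestation day 1 and birth. There were 4 libraries, 1 for each sex and treatment, called here the control and BPA libraries of each sex. Per the methods, several pups of each sex and treatment, from independent litters, were used for the profiling, and meninges were removed. Whether a library pooled these pups is not stated, so each pair of a sex compares 1 library with 1 library and has no replicate check.

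Imprinted genes are transcribed mainly from the maternal or mainly from the paternal copy, according to DNA methylation that was set in the egg or sperm at control regions shared by a cluster of genes. Many of them act on fetal growth, and paternally expressed genes often promote growth where maternally expressed genes often restrain it. In the brain, several are abundant in progenitors, in neurons or in the membranes and vessels around the tissue, and the copy of origin was not measured here, since FPKM adds both copies.

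Promoter windows are shown for 4 of the genes because methylation of imprinted genes acts on CpG dinucleotides, which stand in capitals. Each window runs 5′ to 3′ from 250 bases before the RefSeq start of the gene to 50 bases after it, in the assembly GRCr8. Plagl1 and Mest are shown as genes with lower levels in both BPA libraries, Ndn as a gene with higher levels in both, and Dlk1 as the one with the most CpG among the 8 genes that had a window.
Plagl1, chr1:9297214-9297513 (+ strand): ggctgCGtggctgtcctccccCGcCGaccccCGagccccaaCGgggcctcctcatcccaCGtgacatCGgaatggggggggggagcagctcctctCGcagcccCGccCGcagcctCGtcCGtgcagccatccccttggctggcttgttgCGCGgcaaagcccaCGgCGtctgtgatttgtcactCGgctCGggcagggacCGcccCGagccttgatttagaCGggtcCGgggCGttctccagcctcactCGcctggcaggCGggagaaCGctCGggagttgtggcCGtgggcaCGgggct
Mest, chr4:60321564-60321863 (+ strand): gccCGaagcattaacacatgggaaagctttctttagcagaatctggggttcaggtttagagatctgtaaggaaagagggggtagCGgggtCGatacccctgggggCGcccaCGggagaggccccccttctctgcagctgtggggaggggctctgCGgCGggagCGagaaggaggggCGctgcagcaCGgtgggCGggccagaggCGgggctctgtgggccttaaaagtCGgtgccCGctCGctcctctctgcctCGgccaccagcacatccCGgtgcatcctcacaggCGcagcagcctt
Ndn, chr1:125260809-125261108 (+ strand): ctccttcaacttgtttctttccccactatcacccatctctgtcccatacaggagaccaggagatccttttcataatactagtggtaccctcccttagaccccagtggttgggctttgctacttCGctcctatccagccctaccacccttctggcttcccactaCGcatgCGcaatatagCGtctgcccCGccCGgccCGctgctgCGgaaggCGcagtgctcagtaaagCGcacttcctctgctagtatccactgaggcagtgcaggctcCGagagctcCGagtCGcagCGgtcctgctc
Dlk1, chr6:134192347-134192646 (+ strand): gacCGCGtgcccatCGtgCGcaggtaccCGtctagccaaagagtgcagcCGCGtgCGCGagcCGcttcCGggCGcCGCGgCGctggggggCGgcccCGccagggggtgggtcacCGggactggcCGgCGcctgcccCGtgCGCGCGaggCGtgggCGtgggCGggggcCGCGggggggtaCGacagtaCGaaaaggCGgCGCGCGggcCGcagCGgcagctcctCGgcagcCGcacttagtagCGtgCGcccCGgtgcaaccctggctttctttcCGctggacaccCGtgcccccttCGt
The window held 29 CpG in Plagl1, 18 in Mest, 14 in Ndn and 45 in Dlk1, against a median of 7 over 33465 RefSeq promoters. Of the other genes, Grb10 had 44 CpG, Peg3 16, Meg3 13 and Snrpn 11, so all 8 genes with an entry lay above that median. Cdkn1c and H19 were not matched to an entry. The letters TGCCGC, which the factor ZFP57 binds in methylated control regions, occurred on either strand in the windows of 5 of the 8 genes (Plagl1, Snrpn, Dlk1, Meg3 and Grb10) and in 11.7% of all promoters. The GC box GGGCGG was in the windows of 5 of the 8 genes and in 33.1% of all promoters, and the TATA box letters TATAAA were in the window of Meg3 alone of the 8 and in 14.2% of all. None of these 3 motifs contains another, and a match describes the letters only. TGCCGC and GGGCGG each contain a CpG, of which all 8 windows held more than the median. The shares over all promoters were not matched for CpG content.

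Expression is given as FPKM, the fragments of a transcript scaled to its length and to the total fragments of the library, so levels of different genes can be set side by side. All 9 genes and Meg3 were listed in all 4 libraries and had a mean FPKM of at least 1, the limit for testing, which 13163 transcripts passed. Ndn was the most abundant, with a mean of 247 FPKM. Mest (mean 29.2 FPKM), Peg3 (29.0) and Meg3 (25.2) followed, and their ranges over the 4 libraries overlapped. Cdkn1c (11.8), Grb10 (10.7), Snrpn (7.78) and Plagl1 (7.14) formed the next tier, each overlapping with the next in this order, and none of them reached the tier above. H19 (3.37) and Dlk1 (3.02 FPKM) were the scarcest and overlapped with each other, and their ranges did not reach those of the tier above.

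**Figure D1:**
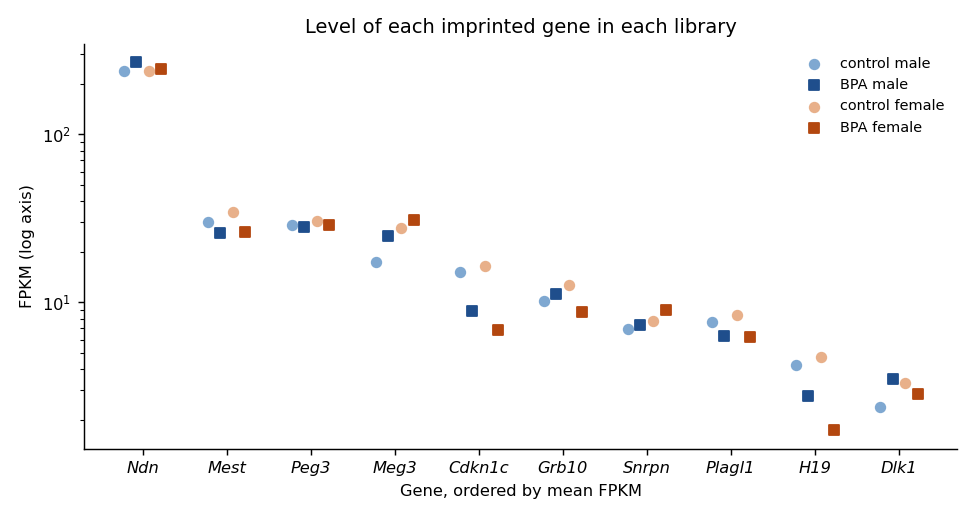
FPKM (log axis) of the 10 genes in the 4 libraries (controls as light circles, BPA as dark squares), 1 point per library. Cdkn1c, H19, Plagl1 and Mest had both BPA points below both control points, and Ndn had both above.

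Log2 ratios were taken as log2 of (BPA + 0.5) over (control + 0.5), which understates the change of scarce genes. Of the 9 genes found by symbol, 5 had lower levels in the BPA library of both sexes (Cdkn1c, H19, Plagl1, Mest and Peg3), against 40.1% of all tested transcripts. With libraries scaled to equal medians this count was 4, since Peg3 in males was then at 0.01. Another 2 (Ndn and Snrpn) were higher in both, against 25.9% of all, and 2 (Dlk1 and Grb10) went in opposite directions, against 33.5%. Both BPA libraries lay below both control libraries in 4 of the 9, where 31.9% of all tested transcripts did so, and above them in 1, where 18.7% did. The median log2 ratio of the 9 was -0.03 in males and -0.39 in females, beside -0.04 in both sexes over all tested transcripts.

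In males, 0 of the 9 genes differed by 1 or more on the log2 scale in either direction, against 3.08% of all tested transcripts. In females, 2 of the 9 did (Cdkn1c and H19), against 4.09% of all in either direction and 2.9% of all with lower levels. All 9 genes have a Gene ID. Among the 10632 tested transcripts with a Gene ID, 126 in males and 222 in females passed this limit in either direction. Cdkn1c and H19 also had log2 ratios of -0.5 or below in both sexes, against 3.75% of all tested transcripts. With the sexes taken as the 2 samples of each treatment, limma called 0 of the 9 at an adjusted p under 0.05, against 0.562% of all tested transcripts (0.456% lower). At an unadjusted p under 0.05, 4 of the 9 were lower (Cdkn1c, H19, Mest and Plagl1) and 0 higher, beside 12% of all tested transcripts lower and 17.3% in either direction. Among transcripts with a Gene ID only, limma called 2 of the 9, Cdkn1c and H19, both lower, against 4.49% of that smaller set.

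Cdkn1c encodes a cyclin-dependent kinase inhibitor that takes cells out of the cell cycle and is expressed from the maternal copy. Its level was 15.1 FPKM in the control male, 8.85 in the BPA male, 16.5 in the control female and 6.85 in the BPA female. Both BPA libraries were lower than both controls, and the 2 controls lay close together, with a log2 difference of 0.13 between the sexes. The BPA to control ratio was 0.587 in males (95% interval 0.479 to 0.721) and 0.415 in females (0.331 to 0.518), from 116 to 278 estimated fragments per library. These exact intervals, like all those that follow, cover counting error only. The limma log2 ratio was -0.97 ± 0.14 (SE, n = 2 libraries per treatment) with an adjusted p of 0.0527, and from 0.00365 to 0.271 over the alternatives, so its side of the threshold depended on the transcripts tested and the pseudocount. Only 1.81% of all tested transcripts had a lower mean log2 ratio.

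H19 gives a maternally expressed non-coding RNA next to the growth factor gene Igf2. Its level was 4.22 FPKM in the control male, 2.78 in the BPA male, 4.75 in the control female and 1.73 in the BPA female. The BPA libraries were again lower than both controls, and the BPA female was the lowest of the 4. The ratio was 0.659 in males (95% interval 0.467 to 0.927) and 0.364 in females (0.242 to 0.541), and the BPA female rested on 36 estimated fragments. The limma log2 ratio was -0.88 ± 0.23 with an adjusted p of 0.161, and from 0.0461 to 0.462 over the alternatives.

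**Figure D2:**
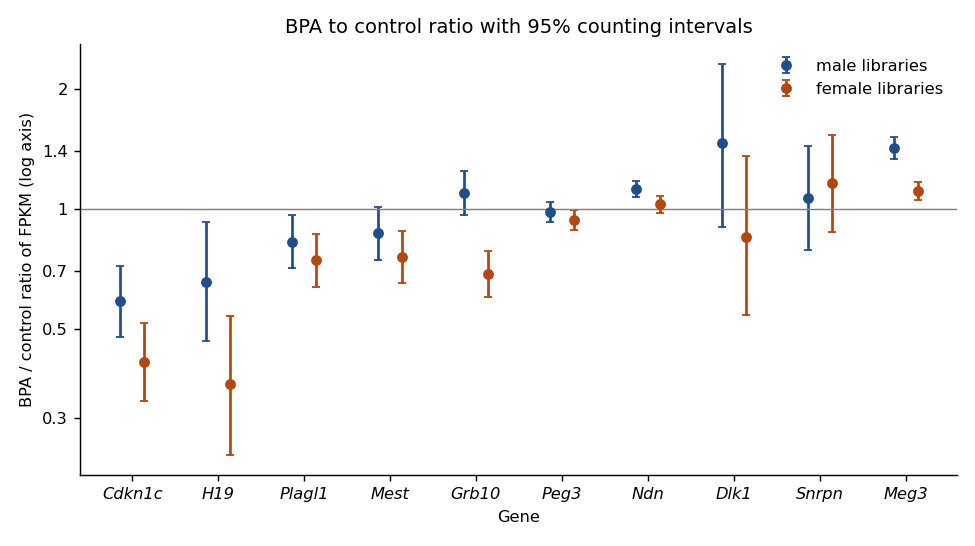
BPA to control ratio of FPKM (log axis) of each gene in the male and the female libraries, with 95% intervals that cover counting error only. The intervals of Cdkn1c, H19 and Plagl1 lie below 1 in both sexes, and that of Meg3 lies above 1 in both. The share of all tested transcripts with such intervals was not computed.

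Markers of other cells moved in the same libraries. Of 16 measured markers of meninges and fibroblasts, all 16 were lower in both BPA libraries and limma called 8 at an adjusted p under 0.05. Their summed level was 280 and 337 FPKM in the control male and female and 125.5 and 97.2 FPKM in the BPA male and female, a ratio of 0.448 in males and 0.288 in females. The collagen gene Col1a1 stood at 35.9 FPKM in the control and 15.0 in the BPA male and at 43.4 in the control and 12.2 in the BPA female, so the marker genes were not at 0 in any library. The part of these cells in the lower Cdkn1c and H19 was not tested, and in bulk tissue fewer cells of a type and less RNA per cell cannot be told apart. Markers of endothelium and mural cells had a median log2 ratio of -0.29 in males and -0.58 in females, with 0 of 9 called by limma, and those of progenitors and radial glia -0.17 and -0.43, also with 0 of 9. The 9 markers of cortical neurons, which define the tissue, were all present, with a median log2 ratio of 0.16 in males and 0.11 in females and 1 called higher. Markers of olfactory bulb projection neurons had medians of -0.72 and -0.60 with 2 of 4 called lower, and those of microglia 0.07 and -0.52 with 0 of 6 called. Limma also called 0 of the 4 markers of red blood cells, 0 of 9 of GABA neurons and striatum and 0 of 7 of the oligodendrocyte lineage. With Gene IDs only, where Cdkn1c and H19 were called, limma called 4 of 9 endothelial and mural markers lower, 2 of 9 markers of GABA neurons and striatum lower (Dlx1 and Gad1) and 2 higher (Drd2 and Ppp1r1b), and 1 red blood cell marker higher (Hbbl1). The striatal dopamine receptor gene Drd2 had log2 ratios of 0.83 in males and 0.84 in females, and the haemoglobin gene Hbbl1 of 2.16 and 0.61, while the other 3 tested red blood cell markers were lower in both BPA libraries. The part of these cells in the values of the imprinted genes was not tested. Summed markers of choroid plexus did not exceed 2.07 FPKM in any library.

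**Figure D3:**
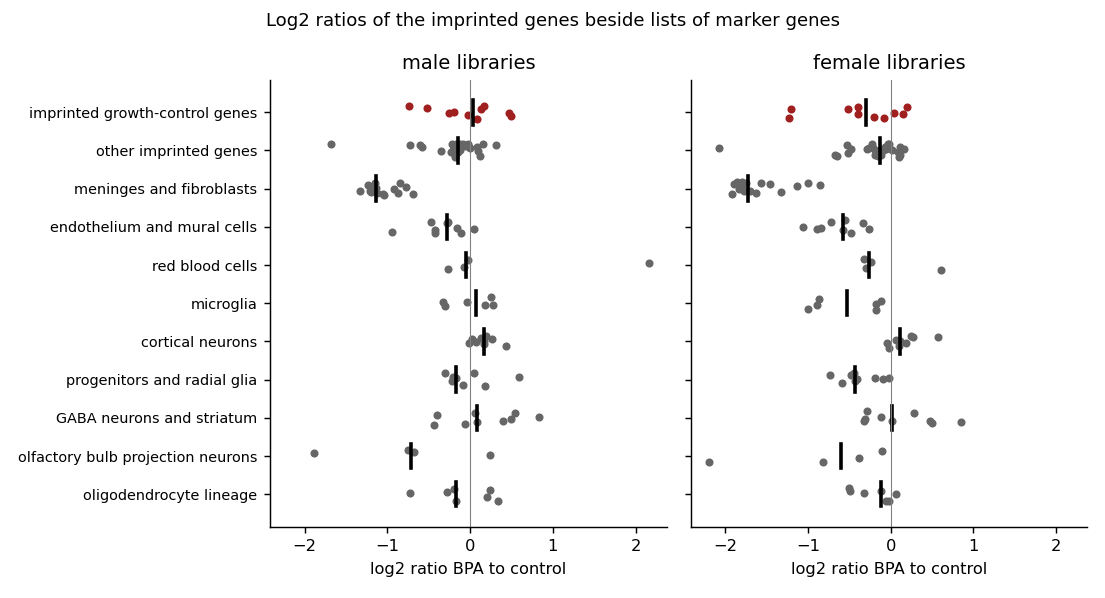
Log2 ratio of BPA to control for the 10 imprinted genes (red), the other imprinted genes and lists of cell type markers (grey), in the male and the female libraries, 1 point per gene with a mean FPKM of at least 1 and a black bar at the list's median. The meningeal and fibroblast markers lie furthest to the left, with a median of -1.13 in males and -1.72 in females.

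The transcripts whose pattern over the 4 libraries lay nearest to Cdkn1c, among 8057 with a Gene ID and a mean FPKM of at least 5, were Serpinh1, Apoe and Nid2, at distances of 0.113, 0.122 and 0.138 (Euclidean, on centred log2 values). Serpinh1 encodes a collagen chaperone and stood at 36.5 FPKM in the control and 24.3 in the BPA male and at 42.7 and 18.1 in the control and BPA females. For H19 they were Serpinh1, Fmo1 and Fbln1, at 0.116, 0.132 and 0.138 over 8058 candidates. A pattern over 4 libraries is short, and these distances are a description.

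Plagl1 encodes a zinc finger transcription factor that arrests the cell cycle and is expressed from the paternal copy. Its level was 7.63 FPKM in the control male, 6.31 in the BPA male, 8.38 in the control female and 6.24 in the BPA female. Both controls exceeded both BPA libraries. The ratio was 0.827 in males (95% interval 0.711 to 0.964) and 0.745 in females (0.64 to 0.867), and limma gave a log2 ratio of -0.33 ± 0.12 with an adjusted p of 0.234.

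Mest, a paternally expressed gene for a protein of the hydrolase fold, had a similar course. It stood at 29.9 FPKM in the control male, 26.0 in the BPA male, 34.6 in the control female and 26.2 in the BPA female. The 2 BPA libraries were nearly equal, while the controls differed by 0.21 on the log2 scale. The ratio was 0.87 in males (95% interval 0.747 to 1.01) and 0.758 in females (0.652 to 0.88). The limma log2 ratio was -0.30 ± 0.09 with an adjusted p of 0.191.

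Peg3, which encodes a large paternally expressed zinc finger protein, had 28.7 FPKM in the control male, 28.2 in the BPA male, 30.5 in the control female and 28.7 in the BPA female. The groups overlapped. The limma log2 ratio was -0.06 with an adjusted p of 0.713, and the ratio was 0.982 in males (95% interval 0.926 to 1.04) and 0.941 in females (0.887 to 0.997). The antisense transcript Apeg3 overlaps this locus and was listed at 24.0 and 22.1 FPKM in the control and BPA males and at 20.6 and 25.0 in the control and BPA females. Strand use in the counting is not stated, so reads of Peg3 and Apeg3 cannot be told apart.

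Dlk1 and Meg3 share an imprinted cluster, in which Dlk1 gives a paternally expressed membrane protein related to Notch ligands and Meg3 a maternally expressed non-coding RNA. Dlk1 stood at 2.39 FPKM in the control male, 3.50 in the BPA male, 3.33 in the control female and 2.84 in the BPA female. It was higher with BPA in males and lower in females, and both counting intervals included 1 (0.9 to 2.31 in males and 0.542 to 1.36 in females). The limma log2 ratio of Dlk1 was 0.14 with an adjusted p of 0.781, and -0.07 without the control male. Meg3 stood at 17.4 FPKM in the control male, 24.7 in the BPA male, 27.7 in the control female and 30.8 in the BPA female. The control male was the low library, and the BPA male stayed below the control female, so the groups overlapped. The Meg3 ratio was 1.42 in males (95% interval 1.34 to 1.51) and 1.11 in females (1.05 to 1.17), but the control libraries of the sexes differed by 0.66 on the log2 scale, more than BPA and control did in either sex (0.50 and 0.15). With the sexes combined, limma gave Meg3 a log2 ratio of 0.32 ± 0.22 with an adjusted p of 0.484, which was -0.01 without the control male and 0.65 without the control female.

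Grb10 encodes an adaptor that restrains signaling of the insulin and insulin-like growth factor receptors, expressed from the maternal copy in most tissues and from the paternal copy in neurons. Its level was 10.2 FPKM in the control male, 11.2 in the BPA male, 12.8 in the control female and 8.76 in the BPA female. The female libraries held both the highest and the lowest value. The ratio was 1.10 in males (95% interval 0.965 to 1.25) and 0.687 in females (0.603 to 0.783). With the sexes combined, limma gave a log2 ratio of -0.19 with an adjusted p of 0.566, and from -0.36 to -0.03 when 1 library was left out.

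Ndn and Snrpn lie in one paternally expressed cluster, whose loss in humans is known from Prader-Willi syndrome. Ndn, a growth suppressor of the MAGE family in neurons, stood at 239 FPKM in the control male, 268 in the BPA male, 237 in the control female and 243 in the BPA female. Both BPA libraries were above both controls, with ratios of 1.12 in males (95% interval 1.07 to 1.17) and 1.03 in females (0.979 to 1.08), and limma gave a log2 ratio of 0.10 with an adjusted p of 0.464. Snrpn, a spliceosome protein of neurons, stood at 6.93 FPKM in the control and 7.38 in the BPA male and at 7.78 and 9.02 in the control and BPA females. Its groups overlapped, and limma gave 0.14 with an adjusted p of 0.627. Snurf, transcribed on the same RNA, was listed at 365 to 394 FPKM, so how the counting split their shared reads is uncertain. Their sum was 401 and 393 FPKM in the control and BPA males and 373 and 377 in the females, with log2 ratios of -0.03 in males and 0.02 in females.

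The sexes were set side by side for each gene by the female ratio over the male ratio, with a 95% interval from counting error alone. This lay below 1 for Grb10 at 0.626 (0.523 to 0.75), H19 at 0.553 (0.334 to 0.915), Cdkn1c at 0.707 (0.526 to 0.948), Meg3 at 0.78 (0.72 to 0.846) and Ndn at 0.917 (0.858 to 0.979). For these 5 genes the BPA female was lower relative to its control than the BPA male was. The interval included 1 for the other 5, among them Dlk1 at 0.582 (0.313 to 1.08). With 1 library per sex and treatment the difference between the sexes could not be tested against the spread of animals. The share of all tested transcripts whose interval excludes 1 was not computed, so the count of 5 has no background beside it.

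**Figure D4:**
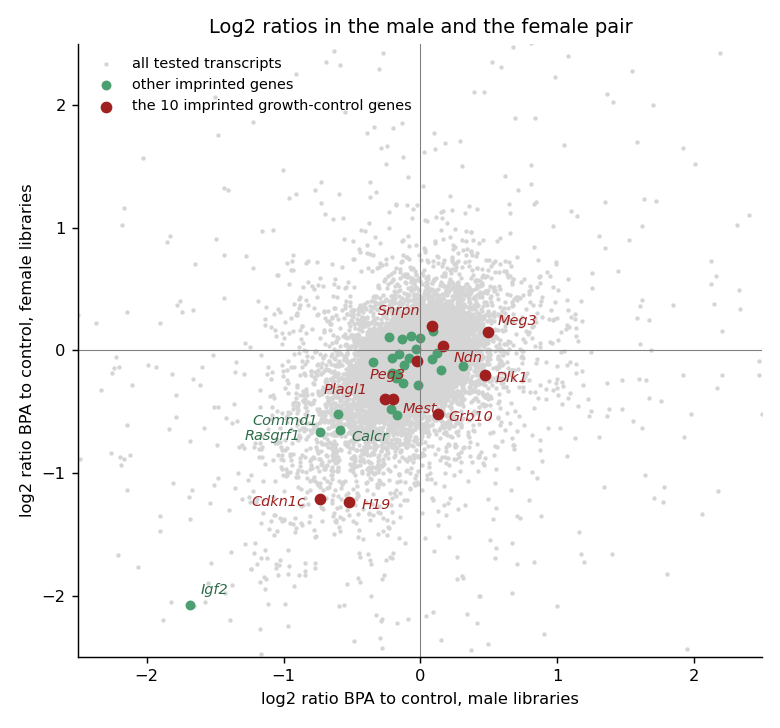
Log2 ratio of BPA to control in the male libraries (x axis) and the female libraries (y axis) for the 10 genes (red), other imprinted genes (green) and all tested transcripts (grey), of which 125 lie outside the axes. Cdkn1c, H19 and Igf2 sit at the lower left, Meg3, Ndn and Snrpn at the upper right, and Dlk1 and Grb10 at the lower right.

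H19 and Cdkn1c lie in the same chromosomal region as Igf2, a growth factor gene expressed from the paternal copy in most tissues. Igf2 was listed at 61.2 FPKM in the control male, 18.7 in the BPA male, 61.1 in the control female and 14.1 in the BPA female, and fell with a limma log2 ratio of -1.88 ± 0.13 and an adjusted p of 0.0253 (5.89e-05 to 0.126 over the alternatives). H19 and Igf2, which most tissues transcribe from opposite parental copies, were thus lower in the same libraries. The genes around them were read in RefSeq gene order and chosen after their values were seen. Of 12 listed genes from Mrpl23 to Nap1l4, 7 had a mean FPKM of at least 1. Apart from H19, Igf2 and Cdkn1c these were Mrpl23, at log2 ratios of 0.02 in males and -0.04 in females, Cd81 at -0.13 and -0.26, Tssc4 at 0.22 and 0.37, and Nap1l4 at -0.06 and -0.02.

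**Figure D5:**
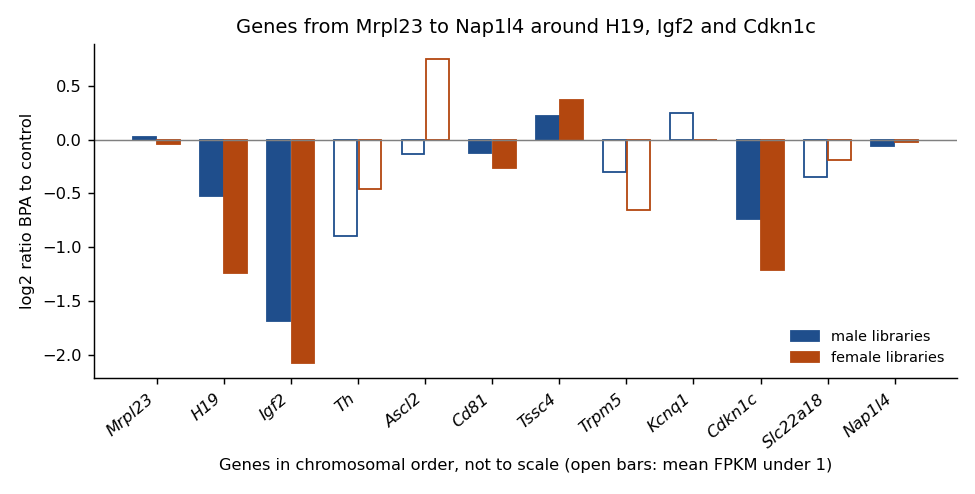
Log2 ratio of BPA to control in the male and the female libraries for the 12 listed genes from Mrpl23 to Nap1l4, in chromosomal order and not to scale; open bars mark the 5 genes with a mean FPKM under 1. H19, Igf2 and Cdkn1c have the lowest bars among the filled ones.

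The neighbours of the other genes were read in the same way. Next to Mest, Cep41 had log2 ratios of -0.51 in males and -0.62 in females and Copg2 of -0.17 and -0.19, the same direction as Mest. Next to Plagl1, Sf3b5 was at 0.28 and -0.27 and Ltv1 at -0.10 and -0.02. The neighbours of Grb10 were Hus1, at -0.02 and -0.17, and Cobl, at -0.35 and -0.09. Chrna7, next to Ndn, was at 0.31 and 0.22, the same direction as Ndn. Begain, next to Dlk1, was at 0.01 and -0.19, Ppp2r5c, next to Meg3, at -0.05 and 0.02, and Usp29, next to Peg3, at -0.13 and 0.09.

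Of 48 other imprinted genes, 37 had a row and 27 a mean FPKM of at least 1. Of these 27, 17 were lower in both BPA libraries and 1 higher, against 40.1% and 25.9% of all tested transcripts, and limma called 3 lower, against 0.456% of all, and 0 higher. Besides Igf2, Commd1, a regulator of copper and NF-kappaB, fell with a log2 ratio of -0.56 and an adjusted p of 0.043 (36.6 against 23.9 FPKM in the control and BPA males, 34.8 against 24.1 in the females). Rasgrf1, a Ras activator of neurons, fell with -0.70 and an adjusted p of 0.046 (15.1 against 8.88 FPKM in males, 15.4 against 9.51 in females). The calcitonin receptor gene Calcr had a limma log2 ratio of -0.62 with an adjusted p of 0.341, at 1.42 and 0.78 FPKM in the control and BPA males and 1.43 and 0.73 in the females. When 1 library was left out, the limma log2 ratio of Igf2 ranged from -2.075 to -1.684. That of Commd1 ranged from -0.60 to -0.53 and that of Rasgrf1 from -0.75 to -0.65. Such fits leave 1 library in a treatment, so they cannot decide whether the calls hold.

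Genes that act with the set were also examined. Of 38 such partners, 33 were tested and limma called 0 at an adjusted p under 0.05 and 5 at an unadjusted p under 0.05, all lower, a share near the 12% of all tested transcripts. These 5 were Cdk2, Ccnd1, Ccnd2 and Ccne1, all partners of Cdkn1c, and Grb14, a partner of Grb10. The partners of Cdkn1c were cyclins, cyclin-dependent kinases and related inhibitors, of which 7 of 11 were lower in both sexes and 4 higher in both, against 40.1% and 25.9% of all. Ccnd1 and Ccnd2, the D-type cyclins that start the cell cycle, had log2 ratios of -0.41 (adjusted p 0.188 by limma) and -0.34 (0.157). The related inhibitors differed in sign, with Cdkn1a at -0.37 (adjusted p 0.377 by limma) and Cdkn1b at 0.13 (0.511). For Dlk1, the receptor gene Notch1 had log2 ratios of -0.11 in males and 0.05 in females, Notch2 of -0.17 and -0.60 and Notch3 of -0.06 and -0.49, the last 2 with both BPA libraries below both controls (adjusted p 0.346 and 0.436 by limma). Together, 8 Notch receptors and ligands had a median of -0.07 and 0.02. For Grb10, the receptors Igf1r and Insr had limma log2 ratios of -0.27 and 0.02 (adjusted p 0.425 and 0.928). Grb14 was at -0.38 (adjusted p 0.155 by limma), with both BPA libraries below both controls. For Snrpn, 6 genes of Sm proteins had a median log2 ratio of 0.03 in males and 0.06 in females.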

How the data were processed

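RNA of 4 libraries, enriched for polyadenylated transcripts, was sequenced by the authors, mapped to the rat genome rn6 (the submitters' processing notes name Bowtie2, HISAT and RSEM, with no versions) and deposited as FPKM, normalized by the authors for transcript length and library depth. The values have 2 decimals, and the lowest, 0.01, stands in place of 0. Rows were matched by symbol and Meg3 by Gene ID, through a RefSeq table of GRCr8 (47357 genes) used for names, gene order and promoter sequences. The genes and lists were chosen with earlier results of these data known.

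Log2 ratios used a pseudocount of 0.5. Pairs of libraries were described without a test. The sexes served as 2 samples of each treatment in limma 3.58.1 (R 4.3.3) on the log2 values of those averaging 1 FPKM or more, with treatment as the only term, 2 residual degrees of freedom, a trend in the prior variance and Benjamini-Hochberg adjustment over 13163 transcripts. The 2 libraries of a treatment differ in sex and in animals, so p-values rest on a spread that includes both. On simulated data of this comparison with 13163 transcripts, limma called 95 of 100 transcripts changed by 1 on the log2 scale, 96 of 100 changed by 2 and 2 of 12963 unchanged. The simulated noise followed the fitted trend of variance with level, without further spread between transcripts and without a sex effect. These shares can therefore exceed those in the real data and do not give the power there. Fragments were estimated from FPKM, transcript length minus 60 bases and a depth recovered from the steps of scarce transcripts, which came to between 8948750 and 9249500 fragments per library and was within 0.027% on simulated data. Intervals are exact (conditional on the sum of both libraries) for a ratio and a normal approximation for a ratio of ratios. Named genes were all 10 of the set, other imprinted genes with a mean FPKM of at least 50 or an absolute log2 ratio of at least 0.5 in the same direction in both sexes, partners and imprint maintenance factors by that same ratio, which named none, and the 3 nearest patterns of each gene of the set with a mean absolute log2 ratio of at least 0.5. Other partners, neighbours and markers are named for their role or position, or for an unadjusted p under 0.05 by limma, with their values known. Alternatives were another pseudocount or filter, median scaling, transcripts with a Gene ID only, sex as a block, no variance trend and leaving out each library. Python 3.11.15 with numpy 2.4.6, pandas 2.3.3, scipy 1.17.1 and matplotlib 3.10.9 did the rest.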

Additional observations from a re-analysis of the deposited data

Results flagged for a closer look

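Log2 ratios of BPA to control had opposite signs in the male and the female libraries for 2 genes of the set, as for 33.5% of all tested transcripts, and with 1 library per sex and treatment these differences were not tested. Dlk1 was at 0.47 in males and -0.20 in females, a difference (female minus male) of -0.67. Grb10 was at 0.13 and -0.52, a difference of -0.64. Of the other imprinted genes named, Snurf was at -0.03 and 0.01 (difference 0.0413), Nnat at 0.08 and -0.07 (difference -0.15), Blcap at -0.00 and 0.10 (difference 0.10) and Gnas at 0.12 and -0.02 (difference -0.14), also not tested.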

How the results depend on the processing

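With the sexes combined, limma called 74 of 13163 transcripts, 477 with transcripts with a Gene ID only, 164 at a mean FPKM of at least 5, 0 without a filter, 0 without the variance trend and 0 to 6 when 1 library was left out (3 without the control male, 6 without the control female). Without a filter and without the trend, 2628 and 2055 transcripts had an unadjusted p under 0.05. Of the imprinted growth-control genes, limma called 0, but 1 with a pseudocount of 1 (Cdkn1c, adjusted p 0.0496, among 97 calls in 13163 transcripts), 1 at a mean FPKM of at least 5 (Cdkn1c, 0.0242, among 164 in 9095) and 2 with Gene IDs only (Cdkn1c, 0.00365, and H19, 0.0461, among 477 in 10632). H19 and Dlk1 did not reach a mean FPKM of 5. Transcripts past an absolute log2 ratio of 1 numbered 405 in males and 539 in females, and 126 and 222 with Gene IDs only; those whose ratios differed by at least 1 between the sexes numbered 585, and 135 with Gene IDs only. In the female libraries, the log2 ratio of H19 was -1.41 with a pseudocount of 0.1 and -1.08 with 1.

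The limma log2 ratio changed sign for 6 of the named genes. When a library was left out, Dlk1 ranged from -0.0674 to 0.339, Meg3 from -0.00835 to 0.651, Snurf from -0.0633 to 0.0466, Nnat from -0.123 to 0.136, Blcap from -0.0123 to 0.110 and Gnas from -0.00913 to 0.110, and Snurf was at 0.0338 with median scaling. Of the genes lower in both BPA libraries, Cdkn1c ranged from -1.15 to -0.80, H19 from -1.16 to -0.60, Plagl1 from -0.39 to -0.26, Mest from -0.40 to -0.19 and Peg3 from -0.10 to -0.01. Of the others, Ndn ranged from 0.03 to 0.17, Snrpn from 0.01 to 0.28 and Grb10 from -0.36 to -0.03. The limma call of Rasgrf1 was lost with median scaling (adjusted p 0.0564) and with sex as a block (0.0506). Those of Igf2, Commd1 and Rasgrf1 were lost without a filter (0.119, 0.127 and 0.149) and without the trend (0.126, 0.157 and 0.15). The cause of these differences was not tested. The labels give no replicate numbers, so the libraries could be paired by sex only, and sex as a block gave 86 calls, 0 of them in the set. Summing rows per symbol changed nothing, since 0 symbols stood on more than 1 row. Depth limits Dlk1 (33 to 47 estimated fragments per library) and H19 (36 to 98) most.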

Other observations

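The enzymes and factors that keep imprints through cell division were also measured. Of 18 such genes, 13 had a row and 11 were tested, and limma called 0 of them at an adjusted p under 0.05 and 0 at an unadjusted p under 0.05, against 0.562% and 17.3% of all tested transcripts. The maintenance methyltransferase gene Dnmt1 stood at 23.1 and 23.3 FPKM in the control and BPA males and at 25.9 and 23.9 in the females. Trim28, the corepressor that ZFP57 recruits, stood at 112 and 119 FPKM in the control and BPA males and at 108 and 118 in the females, with a limma log2 ratio of 0.10 and an adjusted p of 0.386. Zfp57 itself stood between 19.1 and 20.4 FPKM in all 4 libraries, and Ctcf, whose protein insulates Igf2 from its enhancers on the maternal copy, between 30.9 and 33.2. The rule for naming genes picked none of these factors, and those named here were chosen after their values were seen. The methyltransferase gene Dnmt3a had log2 ratios of 0.02 in males and -0.42 in females, the remodeler gene Hells of 0.01 and -0.66, and Uhrf1, whose protein brings DNMT1 to newly copied DNA, of 0.38 and -0.41. Others were further from 0 in males, with Arid4a at -0.24 and 0.06, Arid4b at -0.17 and -0.06 and Zfp445 at 0.12 and -0.01.

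Among the other imprinted genes measured, 3 had a higher mean level than Ndn. Nnat, a small membrane protein of developing neurons, ranged from 853 to 1020.5 FPKM, Gnas, the stimulatory G protein subunit, from 733 to 797 and Snurf from 365 to 394. Others lay below Ndn. Cd81, a tetraspanin, ranged from 118 to 142 FPKM with a limma log2 ratio of -0.19 and an adjusted p of 0.21, and Blcap from 63.4 to 69.1 FPKM.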
